A study of Mus musculus with 2 samples.

Results

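Cohesin is a ring of SMC1A, SMC3 and RAD21 proteins that encloses DNA, holds sister chromatids together and extrudes chromatin loops. A STAG protein (STAG1 or STAG2) binds the ring, NIPBL and MAU2 load it, PDS5A and PDS5B regulate its release and acetylation, and the zinc-finger protein CTCF stops it at loop anchors. Cohesin subunits are among the genes recurrently mutated in myeloid leukaemia, and loops anchored by CTCF and cohesin connect haematopoietic genes with their enhancers. The transcripts of the 10 genes Smc1a, Smc3, Rad21, Stag1, Stag2, Nipbl, Mau2, Pds5a, Pds5b and Ctcf were examined, chosen by symbol for their known roles from 24062 genes in the count tables, and all 10 were found.

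The study sequenced RNA of 2 sorted populations of E11 (embryonic day 11) C57BL6 mouse aorta, which the labels call haematopoietic progenitor cells (HPCs). Both were CD31+ KITint, that is, sorted on the surface proteins of Pecam1 and, at an intermediate level, Kit. Both were also sorted on Gata2Venus, a fluorescent reporter of the blood transcription factor gene Gata2, which the labels list under genotype/variation. Group 1 was Gata2Venus - and group 2 Gata2Venus +, named the negative (reporter-negative) and the positive (reporter-positive) library below. Each group had 1 library (10135400 counts over genes for group 1, 9715131 for group 2), and the number of embryos behind each is not given in the sources used here. With 1 library a group, comparisons are between libraries and carry no p-values, and every 95% interval covers counting error only. Ranges in parentheses after a value are these intervals. SMARTER amplifies cDNA, and amplified reads that carry no molecular identifier may be copies of 1 molecule, which can make intervals too narrow.

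Gata2 had 141 counts in reporter-negative and 664 in reporter-positive cells, the direction of the sort, and it was detected in both. Of the genes of the sorted surface proteins, Kit was at 199 and 60.7 CPM (counts scaled to the library total) and Pecam1 at 537 and 489 CPM. Kit was thus 3.28-fold higher in the negative library and past the rule of size given below, while Pecam1 was not past it. Marker lists for cell types, among them the haematopoietic type that the labels name, moved between the libraries. Of 7 mesenchymal and smooth muscle markers 5 were past the rule of size given below and higher in the negative library. The 7 endothelial and 7 haematopoietic markers had 5 and 4 past it, lower in the negative library. Of 6 macrophage markers 4 were lower by the same rule. Over all tested genes the rule held for 15.2% higher in the negative library and 14.9% lower there. The erythroid markers did not go one way. The red cell transcription factor genes Gata1 and Klf1 were at 0 in the negative library, with 351 and 67 counts in the positive, and Gata1 was the 1 marker past the rule. The embryonic globin genes Hbb-y, Hbb-bh1 and Hba-x had log2 ratios of negative over positive of 0.73, 0.89 and 1.18, not past the rule but with intervals above 0. The haematopoietic marker Spn, which encodes the surface protein CD43, was at 0 in both. Summed levels were 7345 and 3997 CPM for mesenchyme, 1763 and 3665 CPM for endothelium, 246 and 625 CPM for blood, 142 and 635 CPM for macrophages and 325 and 221 CPM for erythroid cells, negative library first. Their part in the results on cohesin genes was not tested. In bulk RNA, fewer cells of a type and less RNA per cell cannot be told apart.

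The upstream sequences of 4 members are shown because they belong to the arms of the ring, whose genes had the highest levels, and to the PDS5 paralogs, which had the lowest level and the highest ratio. They are the bases before the outermost annotated start of each gene, from RefSeq (build GRCm38.p6, the same assembly as mm10), 5′ to 3′ on the gene's strand. Capitals mark a GC box (GGGCGG), the core of the motif of the factor NRF1 (GCGCANGC) or a box of the letters CCAAT, each searched on both strands, so that a match on the other strand appears as its reverse complement. Matches may overlap, as those of NRF1 do for Pds5b.
Smc1a, chrX:152016178-152016427, plus strand: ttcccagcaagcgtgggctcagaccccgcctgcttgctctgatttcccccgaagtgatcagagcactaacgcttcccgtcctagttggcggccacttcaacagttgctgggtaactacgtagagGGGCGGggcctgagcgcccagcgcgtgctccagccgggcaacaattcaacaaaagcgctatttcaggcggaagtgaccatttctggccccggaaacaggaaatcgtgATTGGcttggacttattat
Smc3, chr19:53600146-53600395, plus strand: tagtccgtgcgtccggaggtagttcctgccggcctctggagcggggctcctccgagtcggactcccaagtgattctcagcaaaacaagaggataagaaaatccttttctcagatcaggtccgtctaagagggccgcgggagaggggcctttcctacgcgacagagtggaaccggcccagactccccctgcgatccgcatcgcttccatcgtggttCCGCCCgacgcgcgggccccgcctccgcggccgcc
Pds5a, chr5:65698274-65698486, minus strand: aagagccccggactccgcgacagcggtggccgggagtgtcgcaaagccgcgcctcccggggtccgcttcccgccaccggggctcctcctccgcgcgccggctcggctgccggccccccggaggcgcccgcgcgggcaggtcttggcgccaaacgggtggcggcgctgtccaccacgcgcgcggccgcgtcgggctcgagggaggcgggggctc
Pds5b, chr5:150673577-150673712, plus strand: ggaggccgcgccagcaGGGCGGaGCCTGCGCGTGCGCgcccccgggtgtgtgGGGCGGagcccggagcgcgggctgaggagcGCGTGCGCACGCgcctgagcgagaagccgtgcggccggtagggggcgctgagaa

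For the 250 bases before the RefSeq start, 7 of the 10 members had an entry, with 8 windows, since Mau2 has a pair of starts. A GC box was in 7 of the 8 windows, against 32.7% of 32851 such windows, and the window without one was the more downstream of Mau2. For Pds5a the box lies between the bases shown and the RefSeq start, so its printed sequence has no capitals. A TATA box (TATAAA, both strands) was in 0 of the 8, against 12.4% of all windows. The CCAAT box was in 3 windows (Smc1a, Stag1 and Pds5b, for Pds5b past the bases shown), against 33.9%, and the NRF1 core in 2 (Stag1 and Pds5b), against 8.3%. At least 15 CG dinucleotides were found in 7 of the 8 windows, which 27.3% of all windows reached. Neither trait was particular to the members. Among genes of the related lists described below, windows of Smc2, Yy1 and Mki67 also held a GC box, while those of Ncaph, Mcm5 and Cdca5 did not. Windows of Yy1 and Ncaph also reached 15 CG dinucleotides, while that of Mcm2 did not. These matches describe letters in a window and are not measured binding sites.

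Each cohesin, loader and Ctcf transcript differed by less than 2-fold in level between the Gata2Venus-negative and Gata2Venus-positive libraries. All 10 members were above the level filter, and 0 of 10 were past the rule of size in either direction. The rule asked for a minimum of 10 CPM and 50 counts in the higher library, and for a ratio with its entire 95% interval beyond 2-fold. Of 10381 tested genes this held for 15.2% higher in reporter-negative cells and 14.9% lower there. Among the 6766 tested genes whose mean level lay within that of the members (26.5 to 467 CPM), the shares were 10.4% and 9.02%. The intervals of all 10 members lay wholly within 2-fold, and those of 8 wholly within 1.5-fold. The remaining members, Nipbl and Pds5b, had the highest ratios. With total counts in place of the TMM scaling (trimmed mean of M-values), the upper bound of Pds5b passed 2-fold, at a log2 ratio of 1.07, and 9 intervals lay within it.

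**Figure D1:**
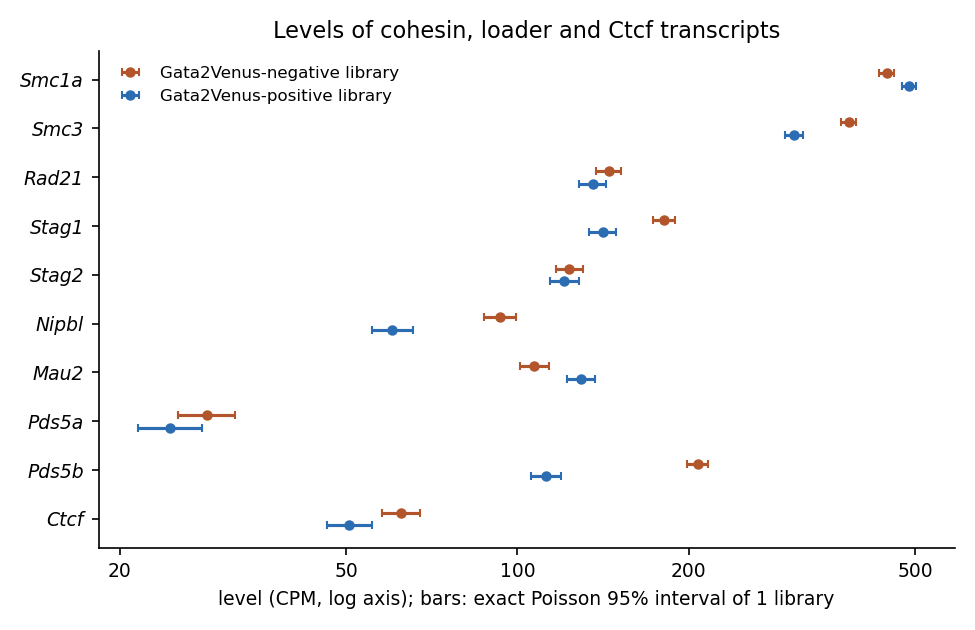
Level of each member in CPM on a log axis, with the exact Poisson 95% interval, in the Gata2Venus-negative and Gata2Venus-positive libraries (1 each). Levels run from 28.4 to 446 CPM in the negative and from 24.5 to 487 CPM in the positive library, and the largest gap within a gene is that of Pds5b.

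The log2 ratio of negative over positive was above 0 for 8 members and below 0 for 2 (Smc1a and Mau2), from −0.27 to 0.89, with a median of 0.26 (1.20-fold) against 0.00 over all tested genes. Of the genes at the members' levels 50.4% had a ratio above 0. The interval lay wholly above 0 for 5 members, wholly below 0 for 2, and held 0 for 3. Among the genes at the same levels 43.6% had an interval wholly above 0 and 42.2% one wholly below it. The middle 50% of the genes at the same levels lay between −0.54 and 0.57, and 47.1% of them fell within the members' range. If libraries are taken to vary with a coefficient of variation of 0.4, 0 members had an interval that left out 0 and 0 had one wholly within 2-fold.

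**Figure D2:**
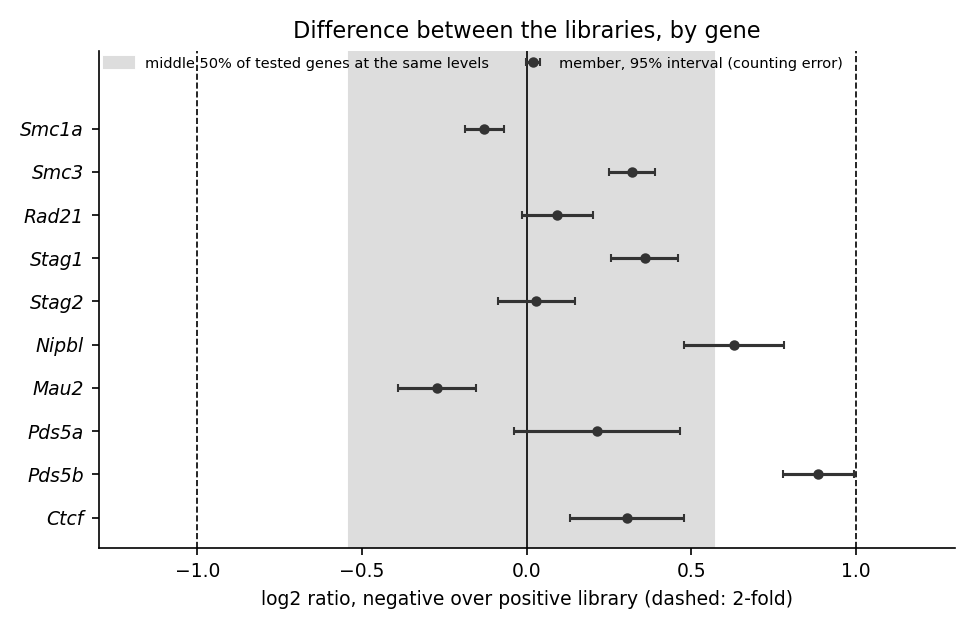
Log2 ratio of the negative over the positive library for each member with its 95% interval from counting error, with dashed lines at 2-fold and the middle 50% of 6766 tested genes of the same level range in grey. All 10 intervals lie between the dashed lines, and only Nipbl and Pds5b have points outside the grey band.

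The ring genes were the most abundant members per length. Smc1a (chromosome X, 152016428 to 152062694, mm10), which encodes an ATPase arm of the ring, had 4641 counts in reporter-negative and 4610 in reporter-positive cells, or 446 CPM (433 to 459) and 487 CPM (473 to 502). The log2 ratio was −0.13 (−0.19 to −0.07), slightly lower in reporter-negative cells. Smc3 (chromosome 19, 53600398 to 53645833), the partner arm and the subunit that is acetylated when cohesion is established, had 3981 and 2899 counts, or 382 CPM (371 to 394) and 307 CPM (295 to 318). It differed the other way, with a log2 ratio of 0.32 (0.25 to 0.39). Rad21 (chromosome 15, 51962240 to 51991747), the kleisin that closes the ring and is cut by separase, had 1507 and 1283 counts (145 and 136 CPM), and its intervals overlapped between the libraries. Its log2 ratio was 0.09 (−0.01 to 0.20).

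Levels between genes were compared per kilobase of exon. Smc1a stood at 77.3 and 84.5 CPM per kilobase in the negative and positive library, Smc3 at 69.0 and 55.3, and Rad21 at 34.2 and 32.1. These 3 were the highest members in both libraries, in that order, with intervals that did not overlap. At the other end, Nipbl was at 9.90 and 6.40 CPM per kilobase and Pds5a at 1.47 and 1.27. The 5 members between them were Pds5b, Stag1, Stag2, Ctcf and Mau2 in falling order in the negative library, at 21.1 to 11.7 CPM per kilobase. In the positive library the order was Stag2, Mau2, Stag1, Pds5b and Ctcf, at 14.6 to 10.4. Neighbours whose intervals overlapped were Stag1 with Stag2 and Ctcf with Mau2 in the negative library, and Stag2 with Mau2, Stag1 with Pds5b and Pds5b with Ctcf in the positive library. Per kilobase of the longest coding sequence the first 3 and last 2 places stayed the same and Mau2 moved to the fourth place in both libraries (54.9 and 66.4 CPM per kilobase). By this measure Rad21 and Mau2, Pds5b and Ctcf, and Nipbl and Pds5a could not be told apart in the positive library, nor could Stag1 and Pds5b in the negative.

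Stag1 and Stag2 encode alternative subunits, so that a cohesin ring carries one or the other. Stag1 (chromosome 9, 100597798 to 100959375) had 1885 counts in reporter-negative and 1336 in reporter-positive cells, or 181 and 141 CPM. The log2 ratio was 0.36 (0.26 to 0.46). Stag2 (chromosome X, 42149317 to 42277185), which is mutated in many leukaemias and solid tumours, had 1285 and 1144 counts, or 123 and 121 CPM. Its log2 ratio was 0.03 (−0.09 to 0.15), the smallest of the 10 in size, and 97.4% of tested genes were at least as far from 0. Of the counts of the pair, Stag1 took 59.5% in the negative library (exact Clopper-Pearson interval 57.7 to 61.2) and 53.9% in the positive (51.9 to 55.8). This share needs no scaling between libraries. The odds of Stag1 over Stag2 were 1.26 times as high in the negative library (exact conditional interval 1.13 to 1.40). Per kilobase of exon the shares were 50.7% and 45.1%, so in the positive library which paralog is the more abundant depends on the length used.

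The loader genes differed in opposite directions. Nipbl (chromosome 15, 8290617 to 8444463), the cohesin loader and the gene most often mutated in Cornelia de Lange syndrome, had 971 counts in reporter-negative and 570 in reporter-positive cells, or 93.3 CPM (87.5 to 99.3) and 60.3 CPM (55.4 to 65.4). The intervals were separate, and the log2 ratio was 0.63 (0.48 to 0.78), or 1.55-fold. Mau2 (chromosome 8, 70016123 to 70042734), its binding partner, had 1115 and 1224 counts, or 107 and 129 CPM, with a log2 ratio of −0.27 (−0.39 to −0.15). There were 0.871 counts of Nipbl per count of Mau2 in reporter-negative cells and 0.466 in reporter-positive cells. The odds of Nipbl over Mau2 were thus 1.87 times as high in the negative library (1.64 to 2.14). For Smc1a over Smc3 the odds were 0.733 times as high there (0.688 to 0.781). The last 2 pairs were formed after the values had been seen.

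**Figure D3:**
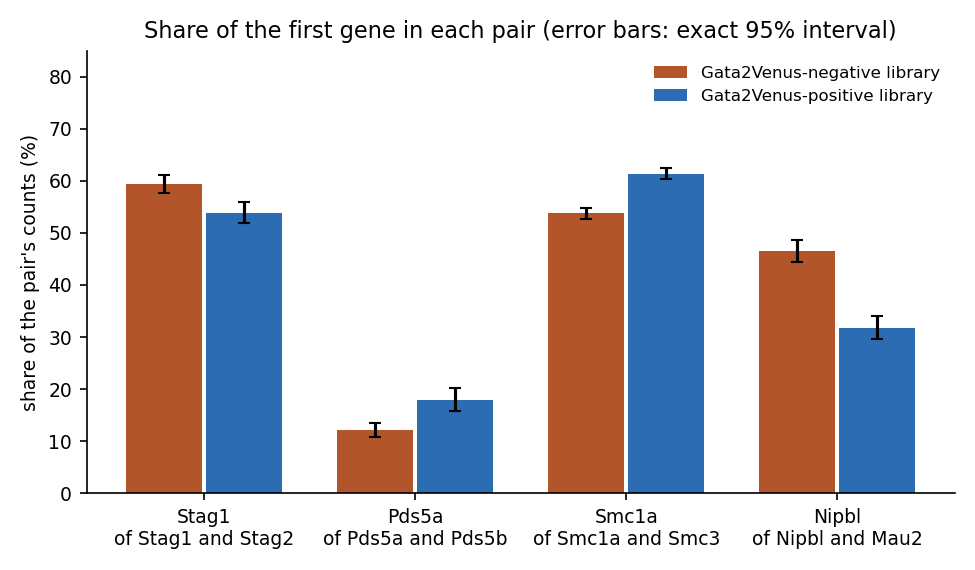
Share of the first gene in the counts of each pair, in percent, in the negative and positive libraries, with exact Clopper-Pearson 95% intervals as error bars. The intervals of the 2 libraries are separate in each pair, and the gap is widest for Nipbl and Mau2, at 46.5% and 31.8%.

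Pds5b showed the highest ratio of the 10 members. Pds5b (chromosome 5, 150673739 to 150810690), which stabilises cohesin and recruits its regulators, had 2160 counts in reporter-negative and 1062 in reporter-positive cells, or 207 CPM (199 to 216) and 112 CPM (106 to 119). The log2 ratio was 0.89 (0.78 to 0.99), or 1.85-fold, just short of 2-fold at the upper bound. Among tested genes 41.8% were at least as far from 0, and among those at the members' levels 30.5%. Its paralog Pds5a (chromosome 5, 65605721 to 65698273) had only 296 and 232 counts, or 28.4 CPM (25.3 to 31.9) and 24.5 CPM (21.5 to 27.9), and its log2 ratio of 0.21 had an interval that held 0 (−0.04 to 0.47). Pds5a took 12.1% of the counts of the pair in the negative library (10.8 to 13.4) and 17.9% in the positive (15.9 to 20.1). The odds of Pds5a over Pds5b were 0.627 times as high in the negative library (0.518 to 0.760). Over the 2 libraries, the genes nearest to Pds5b in log2 CPM were Adamts1, at 206 and 115 CPM, Mfap2, at 201 and 113, and Rad54l, at 201 and 110.

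Ctcf (chromosome 8, 105636568 to 105682922), the factor whose oriented binding sites stop cohesin, had 651 counts in reporter-negative and 479 in reporter-positive cells, or 62.5 CPM (57.8 to 67.5) and 50.6 CPM (46.2 to 55.4). The intervals were separate by a narrow margin. The log2 ratio was 0.30 (0.13 to 0.48), and 76.1% of tested genes were at least as far from 0. Of its annotated exon bases 7.61% are shared with the opposite-strand genes Agrp and Gm5914. For the other members at most 1.93% of exon bases are shared, and at most 1.64% of their 50-base stretches occur in transcripts of another gene. Without a stated strand setting, it is not known whether reads of such overlaps were counted for either gene or set aside as ambiguous.

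**Figure D4:**
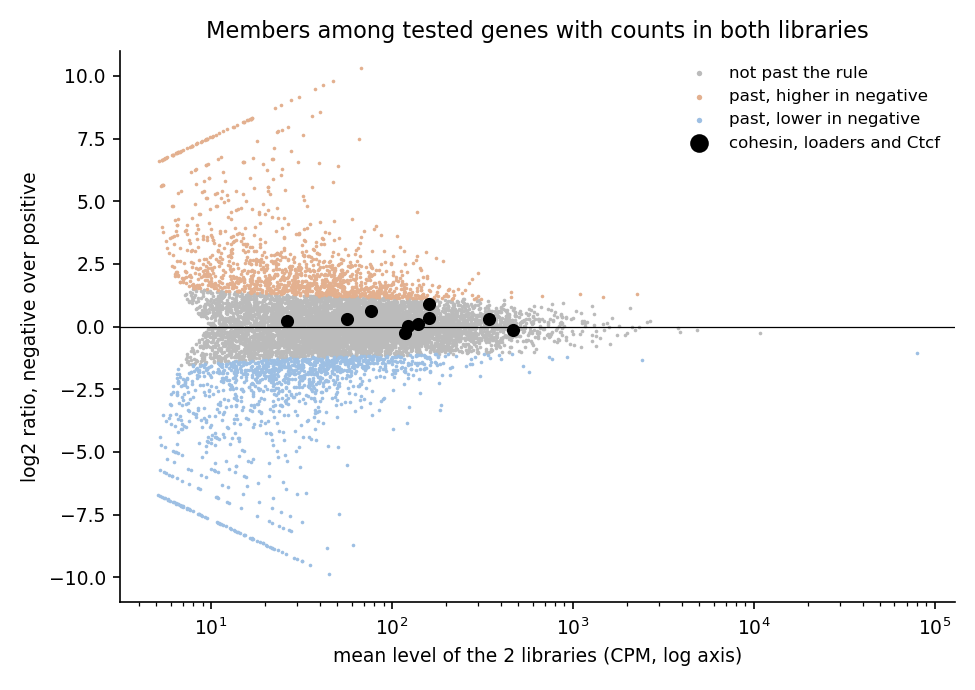
Log2 ratio of negative over positive against mean level (CPM, log axis) for tested genes with counts in both libraries, in grey where not past the rule of size and in colour where past it, with the 10 members in black. Genes below 100 CPM reach log2 ratios near 10 in both directions, whereas the members lie between −0.27 and 0.89.

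Genes that act on cohesin after loading included larger differences than the members did. Of 13 release, acetylation and cleavage genes, all above the level filter, 3 were higher in the negative library by the rule and 0 lower. The shares over all tested genes were 15.2% higher and 14.9% lower. The list had a median log2 ratio of 0.34. Hdac8, on the X chromosome (102284639 to 102505359), which deacetylates SMC3 so that cohesin can be reused, had 666 counts in reporter-negative and 3 in reporter-positive cells. This is a log2 ratio of 7.66 (6.10 to 9.94). Among genes with at least 100 counts in one library, 7.64% had at most 3 in the other. Dscc1 (430 and 143 counts, 2.73-fold) and Chtf18 (746 and 270 counts, 2.51-fold) were also higher. Both encode parts of a clamp loader that supports cohesion during replication. The most abundant genes of the list were Chtf8, of the same clamp loader, at 411 and 267 CPM (log2 ratio 0.62), and Cdca5, which encodes the cohesin protector sororin, at 149 and 97.9 CPM (0.60), neither past the rule. Has3 and Gng13 on the opposite strand cover 11.6% of the exon bases of Chtf8 and 7.53% of those of Chtf18. Reads of these overlaps could have been counted for the wrong gene or set aside as ambiguous. Ddx11, a cohesion helicase gene, went the other way, at 109 and 236 counts (log2 ratio −1.25, interval −1.59 to −0.92), and so did Pttg1, the securin gene, at 318 and 489 counts (−0.76). Neither was past the rule, and both were named after their values were seen. Also named so, Wapal, the release factor, was at 37.7 and 32.2 CPM, and the SMC3 acetyltransferase genes Esco1 and Esco2 were at 30.9 and 35.6 CPM and at 47.0 and 27.2 CPM.

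Of the germline paralogs, Stag3 differed by more than any of the 10 members. Stag3 (chromosome 5, 138280240 to 138312393), the meiotic STAG subunit, had 486 counts in reporter-negative and 29 in reporter-positive cells, 46.7 and 3.07 CPM (log2 ratio 3.93, interval 3.39 to 4.52). Smc1b, the meiotic counterpart of Smc1a, had 20 counts and 0, and did not reach the level filter. Rec8, the meiotic kleisin, was not past the rule, at 8.74 and 11.5 CPM (log2 ratio −0.40, interval −0.82 to 0.02). The kleisin gene Rad21l and the CTCF paralog gene Ctcfl had 0 counts in both libraries, which allows up to 0.288 CPM in the negative and 0.317 in the positive. In this list of 5 genes 2 were above the level filter. By the rule 1 was higher and 0 were lower, against 15.2% and 14.9% of all tested genes. Germ cell markers moved the same way. Of 6, 5 were above the filter and all 5 were higher in the negative library. Dppa3 had 983 counts and 1, Pou5f1 had 870 and 59, Dnd1 442 and 0, Dazl 195 and 0, and Ddx4 193 and 1. Nanos3, at 39 and 21 counts, stayed below it. The summed level of the 6 markers was 261 CPM in reporter-negative and 8.67 CPM in reporter-positive cells, and their part in the difference of Stag3 was not tested.

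Condensin and SMC5/6 complexes, which share the SMC design, had 0 genes higher and 1 lower by the rule among 14 above the filter. For all tested genes the shares were 15.2% and 14.9%. The median log2 ratio of the list was 0.06. Ncapg2 (chromosome 12, 116405402 to 116463731), a subunit of condensin II, had 129 counts in reporter-negative and 1359 in reporter-positive cells, 11.6-fold lower (log2 ratio −3.54, interval −3.81 to −3.27). The other condensin II genes, named after their values were seen, were not past the rule. Ncaph2 was at 247 and 124 CPM, though 19.7% of its exon bases are shared with Sco2 and Tymp on the opposite strand, and Ncapd3 at 48.6 and 87.5 CPM. The most abundant genes of the list were Ncapd2, of condensin I, at 477 and 321 CPM (log2 ratio 0.57), and Smc4, an arm of both condensins, at 269 and 442 CPM (−0.72).

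Among 11 CTCF partners and other looping factors 2 were lower in reporter-negative cells by the rule and 0 higher. Among all tested genes 14.9% were lower and 15.2% higher. The median log2 ratio of the list was −0.10. Yy1 (chromosome 12, 108792973 to 108820148), a zinc-finger protein that joins enhancers and promoters, had 57 and 298 counts (log2 ratio −2.52, interval −2.96 to −2.11). Ldb1 (chromosome 19, 46031570 to 46045214), which links GATA1 complexes at looped enhancers of blood genes, had 164 and 393 counts, 2.64-fold lower (log2 ratio −1.40, interval −1.67 to −1.13). The most abundant of the list were Top2b and Patz1, both not past the rule. The topoisomerase gene Top2b, found at loop anchors, was at 160 and 296 CPM (−0.89). Patz1, a zinc-finger gene, was at 117 and 110 CPM (0.08). Of the exon bases of Top2b 12.3% are shared with Rarb on the opposite strand, and of those of Patz1 11.7% with Gm11944 and Gm12592. Reads of these overlaps could likewise have been counted for the wrong gene or set aside as ambiguous.

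Since cohesin acts at each cell division, 12 proliferation genes were set beside the members. Their median log2 ratio was 0.02, with a range of −0.91 to 1.40. By the rule 1 was higher and 0 were lower, against 15.2% and 14.9% of all tested genes. Bub1, a kinase of the spindle checkpoint that directs the cohesin protector shugoshin to centromeres, was the gene past it, at 317 and 120 CPM (log2 ratio 1.40). Top2a, at 1317 and 901 CPM (0.55), and Cdk1, at 440 and 661 CPM (−0.59), were the most abundant. The summed level of the 12 genes was 4616 CPM in reporter-negative and 4401 CPM in reporter-positive cells, and that of the 10 members 1776 and 1569 CPM.

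**Figure D5:**
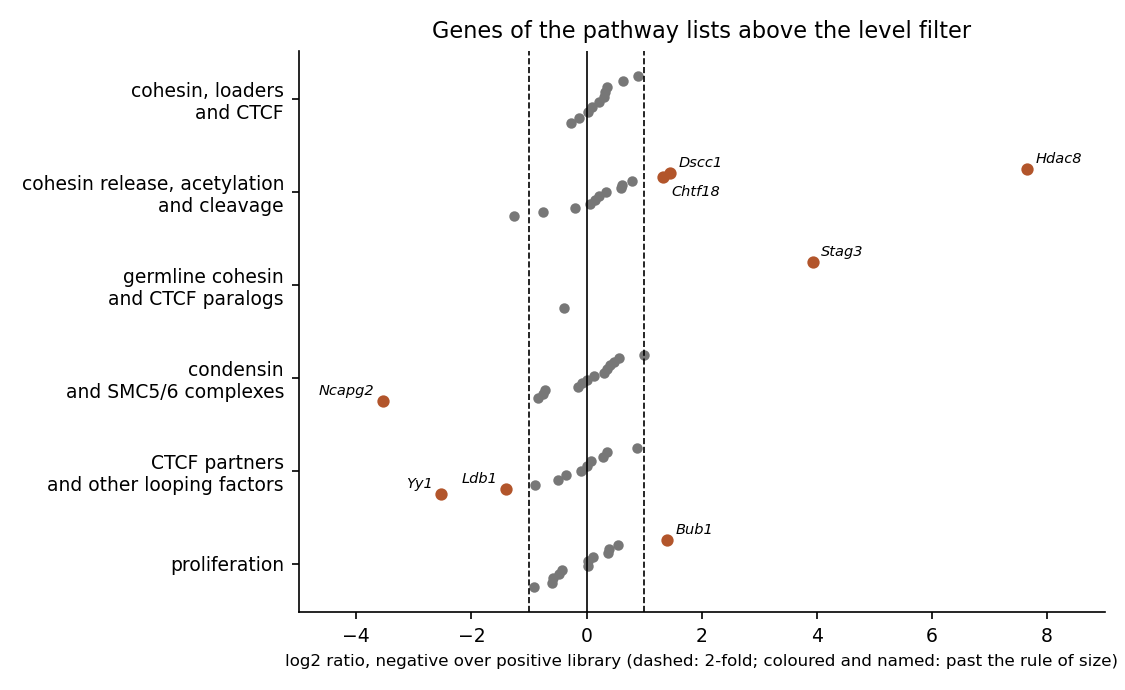
Log2 ratio of negative over positive for the genes of each list above the level filter, 1 point per gene, with dashed lines at 2-fold and the genes past the rule of size in colour with their names. All 10 members lie between the dashed lines, whereas Hdac8, Stag3 and Ncapg2 lie at 7.66, 3.93 and −3.54.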

How the data were processed

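RNA of 2 libraries was sequenced. Per the labels' protocols, RNA was taken with the mirVana kit, copied by the SMARTER method and made into Illumina libraries. TopHat, Cufflinks and HTSeq with build mm10 are named per the submitters' processing notes, while tool versions, annotation and strand setting are not given here. The values deposited by the authors are raw counts per gene symbol, in 24062 genes and 5 rows for reads of no gene, which were left out of totals. Alignments that were not unique made up 45.5% (reporter-negative) and 48.2% (reporter-positive) of all counts, rows for no feature 5.93% and 7.996%, and ambiguous reads 0.474% and 0.412%.

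Counts were divided by the total over genes times TMM factors (trimmed mean of M-values) of 1.03 (negative) and 0.974 (positive), computed with edgeR 4.0.16 under R 4.3.3, to give CPM. Ratios have exact Clopper-Pearson 95% intervals given a gene's total, levels exact Poisson intervals. A count of 0 allows up to 3 counts. The rule of size replaced a test. Coordinates and lengths are from GENCODE vM21, to which 94.55% of symbols matched. The rule was tested on simulated counts that held counting error only, so that test does not cover spread between libraries. Genes were named by rule: all members, pathway lists of under 9 genes in full, and of longer pathway lists up to 6 genes past the rule and the 2 most abundant. Genes of marker lists were named after their values were seen. Members and lists were chosen with earlier results of these data known. Alternatives were other scalings (total counts, DESeq2 1.42.0 size factors, totals over fewer genes), thinning, other filters and folds, and an assumed spread between libraries.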

Additional observations from a re-analysis of the deposited data

How the results depend on the processing

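The count of 0 members past the rule held under 11 of the 12 alternatives and became 1, Pds5b, with an interval beyond 1.5-fold. Counts over all tested genes moved by over 1.5 times. From 3127 (1582 higher and 1545 lower in the negative library) they became 4824 beyond 1.5-fold (2440 and 2384) and 1495 beyond 4-fold (744 and 751). With a filter of 50 CPM they were 1174 (629 and 545), and with a coefficient of variation of 0.4 they were 1357 (663 and 694). With a filter of 1 CPM and 10 counts they were 4781 (2484 lower), and with no filter 4813 (2503 lower). The median log2 ratio of members moved by less than the members' own spread, and 8 members stayed above 0 under every scaling. With total counts, which moved the median of tested genes to 0.08, Smc1a came to −0.05 its interval held 0, and 7 intervals lay above 0. Per kilobase of exon, the Stag1 share became 50.7% and 45.1% and the Pds5a share 6.52% and 10.004%, negative library first. Per kilobase of coding sequence, added after seeing the data, the Stag1 and Pds5a shares differed from those of counts by less than counting error. The Nipbl share of Nipbl and Mau2 depended on the length used. From 46.5% and 31.8% of counts it became 45.8% and 31.1% per kilobase of exon. Per kilobase of coding sequence it was 16.8% and 9.76%. The comparison of the odds between the libraries does not depend on length. Beyond 4-fold, and with the assumed spread, Dscc1, Chtf18, Ldb1 and Bub1 were no longer past the rule, and with the assumed spread Yy1 was not either. Beyond 1.5-fold, genes past the rule rose from 1 to 5 for condensin and SMC5/6, from 2 to 4 for looping factors and from 1 to 2 for proliferation, and lower or no filters took germline paralogs from 1 to 2. The filter of 50 CPM by its construction removed Stag3, Yy1, Ldb1 and Dscc1. No paired analysis was possible because each group holds 1 library, nor was leaving out a replicate. Depth limits Pds5a most among the members.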

Other observations

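Genes of the meiotic chromosome axis and of meiotic recombination, listed after the data had been seen, were examined beside Stag3 and Smc1b. Of 17 such genes in the tables, 12 had 0 counts in both libraries, among them Sycp1, Sycp2 and Sycp3 of the synaptonemal complex, and Stra8, an inducer of meiosis. Of the rest, Hormad1, an axis protein gene, had 47 counts in reporter-negative cells and 0 in reporter-positive cells, Spo11, which encodes the enzyme that cuts DNA for recombination, had 54 and 0, Syce3 had 17 and 0, and Msh5 had 102 and 18. Syce2, the only one above the level filter, had 450 and 275 counts. Its log2 ratio of 0.57 (0.35 to 0.79) stayed short of the rule.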
